A study of Mus musculus with 4 samples.

Results

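Indian hedgehog and parathyroid hormone related protein form the signalling loop that paces growth cartilage, and 9 genes of that loop were followed here in rib chondrocytes of mice with a conditional knockout of the histone demethylases Kdm6a and Kdm6b and of wild type mice. They were the rows whose symbol was Ihh or Pthlh (the ligands), Ptch1, Smo, Boc, Cdon or Pth1r (the receptors and co-receptors), or Gli2 or Gli3 (the transcription factors). All 9 were found, among 17575 genes listed in the 4 libraries. None of the 9 passed an adjusted p under 0.05 in edgeR. The ligand genes were close to the lower limit of counting in every library, whereas Smo, Gli3, Cdon, Boc and Ptch1 had at least 421 counts in each. Pth1r and Gli2 lay between, at 43 to 90 counts.

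In growth cartilage, Indian hedgehog is secreted by chondrocytes that are about to enlarge. It binds Patched, encoded by Ptch1, which otherwise holds back the membrane protein Smoothened, encoded by Smo, and Boc and Cdon help to present the ligand. Active Smoothened changes the processing of the Gli factors, of which Gli2 mainly activates and Gli3 mainly represses target genes. Hedgehog signalling maintains the production of parathyroid hormone related protein, encoded by Pthlh, and this peptide acts through Pth1r, a G protein-coupled receptor that raises cyclic AMP, to delay the enlargement of chondrocytes called hypertrophy.

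The knockout group held 2 libraries from 10-day-old C57/Bl6 mice with floxed Kdm6a and Kdm6b alleles, both homozygous, and a Cre transgene under Col2 control. Col2 is active in chondrocytes, and other cells of the preparation may keep both genes. In which cells the alleles were deleted was not measured. The wild type group held 2 libraries from mice of the same age and strain, and the labels do not say whether these carried the transgene or floxed alleles. Rib cartilage was digested overnight with collagenase, the cells were filtered and plated, and total RNA was sequenced, so all 4 libraries describe cells in culture. Kdm6a and Kdm6b encode demethylases that remove a repressive methyl mark from histone H3. Nothing in the labels ties a library to an animal of its own, and the p-values given here therefore reflect variation among 4 libraries that may be technical.

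Expected counts, which are estimated reads per gene, summed to 32332044 and 32230980 in the knockout libraries and to 31616619 and 31178248 in the wild type libraries. Kdm6b measured 51.4 and 46.2 CPM (counts scaled to library size by the TMM method) in the knockout libraries, against 131 and 118 CPM in the wild type libraries. Kdm6a measured 28.6 and 31.4 CPM in the knockout libraries, against 52.6 and 56.9 CPM in the wild type libraries. Both fell, with edgeR adjusted p-values of 0.00174 for Kdm6b and 0.00489 for Kdm6a, and RNA of both genes was still detected in the knockout libraries. With wild type replicate 1 left out the log2 fold changes were -1.28 for Kdm6b and -0.92 for Kdm6a, and with wild type replicate 2 left out they were -1.42 and -0.81. In those fits no gene of the whole table passed. These counts cover each whole gene and not the deleted part alone. The defining chondrocyte genes were present in every library, with Col2a1 at 37110 and 36600 CPM in knockout and 26010 and 24370 CPM in wild type cells. Over 10 chondrocyte markers the summed level was 54200 to 56300 CPM in knockout and 40100 to 41800 CPM in wild type libraries, most of it Col2a1. Of the 10, 3 rose, 1 fell and 6 did not pass, where 3.62% of all tested genes rose and 5.63% fell. The one that fell was Comp, a cartilage matrix gene, at 124 and 138 CPM in knockout and 489 and 450 CPM in wild type libraries (edgeR adjusted p = 0.000915), and Sox9, the master regulator of chondrocytes, did not pass at a log2 fold change of -0.19. In bulk RNA, fewer cells of a type and less RNA per cell cannot be told apart.

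The levels of the 9 genes spanned a wide range when corrected for gene length. In FPKM, the authors' measure of fragments per gene length and library size, Smo was the highest, at 17.7 and 19.31 in knockout and 15.97 and 15.8 in wild type libraries. Gli3 followed at 6.45 and 7.24 in knockout and 7.16 and 7.41 in wild type libraries. Cdon averaged 5.86, Boc 5.0 and Ptch1 4.40 FPKM over the 4 libraries, and the ranges of Cdon and Boc, and of Boc and Ptch1, overlapped. Pth1r, at 0.69 to 1.23 FPKM, overlapped with neither Ptch1 above it nor Gli2 below it, and Smo and Gli3 were likewise clear of the next gene down. Gli2, Pthlh and Ihh formed the bottom of the order, at 0.20 to 0.38, 0.08 to 0.59 and 0.20 to 0.38 FPKM, and their ranges overlapped. Smo lay above 74.3% to 78.2% of the genes listed in a library, Ihh above 20.7% to 25.6%.

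**Figure D1:**
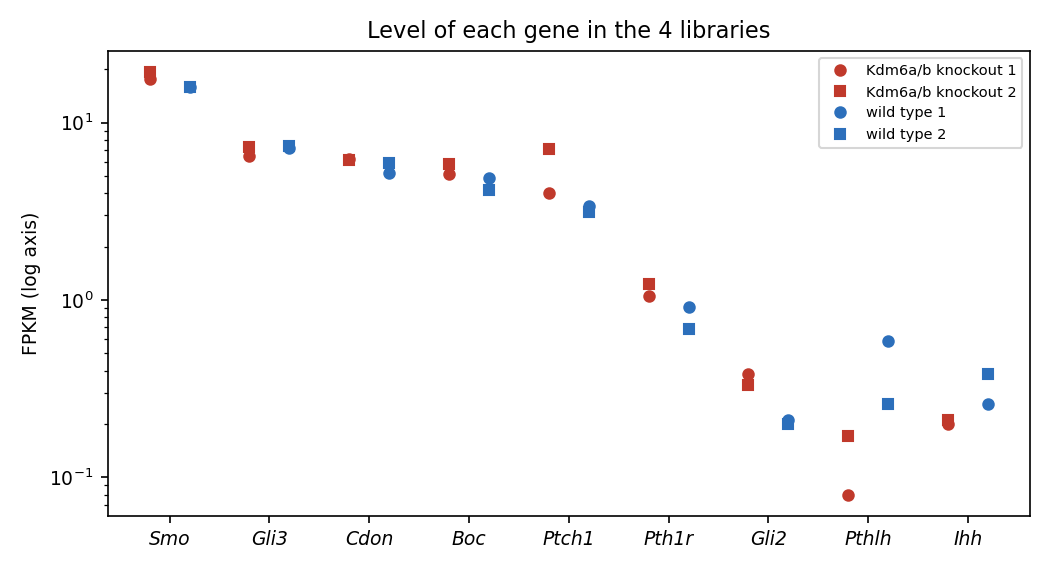
FPKM (log axis) of the 9 genes in each library, ordered by mean level, with the 2 knockout libraries in red at the left of each pair and the 2 wild type libraries in blue at the right. Smo is highest, and Gli2, Pthlh and Ihh lie below 1 FPKM in every library. Knockout replicate 2 stands apart for Ptch1 at 7.09 FPKM.

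Ihh, the hedgehog ligand gene of cartilage, had 16 and 17 counts in the knockout libraries, against 20 and 29 counts in the wild type libraries. The knockout libraries lay below both wild type libraries, but the 95% Poisson intervals, which cover counting error only, ran from 9.15 to 27.2 counts in the knockout and from 12.2 to 41.6 in the wild type libraries. The fold change on the log2 scale, taken as knockout over wild type throughout, was -0.65 (SE 0.39, 95% interval -1.59 to 0.29, edgeR adjusted p = 0.315). The interval covered values on both sides of 0, so no difference was detectable at this depth. Among 9834 genes averaging at least 5 CPM, those closest to Ihh in centred log2 CPM over the 4 libraries were Gadd45a, Setbp1 and Plcxd2, at distances of 0.0517, 0.0606 and 0.0699.

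Pthlh, which encodes parathyroid hormone related protein, had 4 and 8 counts in the knockout libraries, against 28 and 12 counts in the wild type libraries. Summed over a group this made 12 counts (95% Poisson interval 6.2 to 21.0) in knockout and 40 counts (28.6 to 54.5) in wild type cells. The log2 fold change was -1.79 (SE 0.62, 95% interval -3.27 to -0.30, unadjusted p = 0.0252, edgeR adjusted p = 0.120), which did not pass. Pthlh reached the filter's floor of 10 counts at the median library size in 0 knockout and 2 wild type libraries, so it was tested only through the group in which it was higher. Its wild type replicates lay far apart, with 28 counts in replicate 1 and 12 in replicate 2. Without wild type replicate 1 its log2 fold change was -1.09, and without knockout replicate 2 it was -2.35. The authors' deposited table gave it a log2 fold change of -0.98 and an adjusted p of 0.311. Its nearest genes by the same distance were Tpbg, Akr1b8 and Tnfaip2, at 0.531, 0.554 and 0.569.

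**Figure D2:**
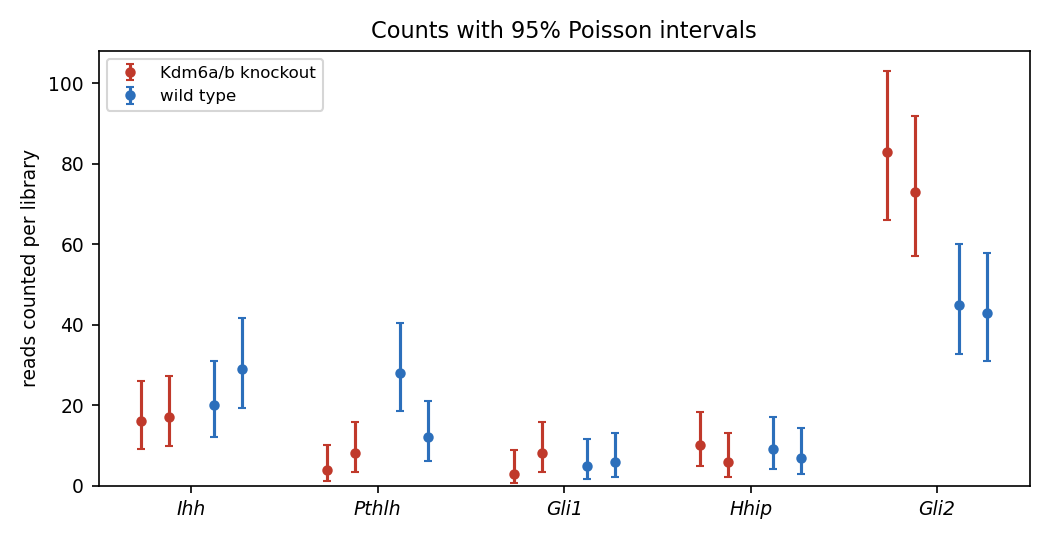
Reads counted per library for Ihh, Pthlh, the hedgehog targets Gli1 and Hhip, and Gli2, with 95% Poisson intervals as bars, knockout libraries in red at the left and wild type libraries in blue at the right of each gene. Ihh, Pthlh, Gli1 and Hhip have at most 29 counts in a library. The Gli2 counts are 73 and 83 in knockout and 43 and 45 in wild type libraries.

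Ptch1 encodes the hedgehog receptor and is itself a target that hedgehog signalling induces. It measured 17.2 and 30.4 CPM in the knockout libraries, against 14.6 and 13.9 CPM in the wild type libraries. Both knockout libraries were above both wild type libraries, and knockout replicate 2 stood well apart from the other 3. The log2 fold change was 0.74 (SE 0.25, 95% interval 0.14 to 1.34, unadjusted p = 0.0230, edgeR adjusted p = 0.114). DESeq2 on the same counts gave 0.74 (SE 0.25) with an adjusted p of 0.0294, and the authors' deposited table gave 0.70 with an adjusted p of 0.0389. That table marks genes as Up or Down only at an absolute log2 fold change above 1, and Ptch1 carried no such mark. The value moved with single knockout libraries. Without knockout replicate 2 it was 0.28 (edgeR adjusted p = 0.310), and DESeq2 then gave 0.28 (adjusted p = 0.741). Without knockout replicate 1 it was 1.10. Over the settings that kept all 4 libraries, the edgeR and limma adjusted p ran from 0.0325 with a replicate block to 0.174 without the filter. DESeq2 gave 0.78 without wild type replicate 1 and 0.71 without wild type replicate 2. Genes closest to Ptch1 in centred log2 CPM over the 4 libraries were Slc39a10, Acvr1b and Rab32, at 0.106, 0.109 and 0.181.

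Skeletal muscle markers were also highest in knockout replicate 2. The summed level of 6 skeletal muscle markers was 4.45 and 19.6 CPM in the knockout libraries, against 7.59 and 6.62 CPM in the wild type libraries. Myf5 was at 0 in wild type replicate 2, the other markers were detected in every library, and 4 of the 6 were tested, of which 0 passed in edgeR or DESeq2 and 0 had an unadjusted edgeR p under 0.05. Myod1, a master regulator of muscle cells, measured 2.75 and 10.7 CPM in knockout and 5.19 and 4.28 CPM in wild type libraries. The sum of 4 smooth muscle markers was 3.94 and 8.53 CPM in knockout and 4.08 and 5.50 CPM in wild type libraries, but Myh11 was lowest in knockout replicate 2. The sum of 4 tendon markers, most of it Thbs4, was 78.2 and 175 CPM in knockout and 107 and 150 CPM in wild type libraries, so the groups overlapped and knockout replicate 1 was the lowest. Their part in the Ptch1 value was not tested.

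Of the other receptor genes, Smo, which encodes the signal transducer below Patched, measured 69.8 and 76.4 CPM in knockout and 63.9 and 64.8 CPM in wild type libraries. Its log2 fold change of 0.18 was small and precise (SE 0.076, 95% interval 0.0018 to 0.37, edgeR adjusted p = 0.168). Boc measured 22.5 and 25.9 CPM in knockout and 21.6 and 19.0 CPM in wild type libraries, a log2 fold change of 0.26 (SE 0.11, 95% interval -0.021 to 0.53). Cdon, the relative of Boc, measured 45.0 and 44.3 CPM in knockout and 37.95 and 44.2 CPM in wild type libraries, a log2 fold change of 0.12 (SE 0.094, 95% interval -0.10 to 0.35), and its groups were separated by 44.3 against 44.2 CPM only. Neither co-receptor passed, with edgeR adjusted p-values of 0.198 for Boc and 0.425 for Cdon. A 2-fold change of Smo, Boc or Cdon in either direction was outside these intervals.

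Pth1r, the receptor of parathyroid hormone related protein, had 77 and 90 counts in the knockout libraries, against 65 and 48 counts in the wild type libraries. This corresponded to 2.35 and 2.76 CPM in knockout and 2.06 and 1.58 CPM in wild type cells. The groups did not overlap, and the log2 fold change was 0.49 (SE 0.25, 95% interval -0.11 to 1.09, edgeR adjusted p = 0.244).

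Gli2, the main activator of the pathway, had 83 and 73 counts in the knockout libraries, against 45 and 43 counts in the wild type libraries. The replicates lay close together in both groups and the groups did not overlap. The log2 fold change was 0.75 (SE 0.24, 95% interval 0.18 to 1.32, unadjusted p = 0.0177, edgeR adjusted p = 0.0997), and DESeq2 gave an adjusted p of 0.248. Gli2 had the smallest p of the 9 genes in edgeR, and its value stayed between 0.66 and 0.84 over the 10 other settings that gave one. Gli3, the main repressor, measured 54.3 and 61.0 CPM in knockout and 61.0 and 64.8 CPM in wild type libraries. Its groups met at 61.0 CPM, and the log2 fold change was -0.13 (SE 0.086, 95% interval -0.33 to 0.080, edgeR adjusted p = 0.368). In FPKM, Gli3 was 17.0 and 21.9 times as high as Gli2 in the knockout libraries, against 34.1 and 37.0 times in the wild type libraries. This ratio was formed after the values were seen, and with 2 libraries against 2 the smallest p of a two-sided exact permutation test is 0.333, which the ratio reached.

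**Figure D3:**
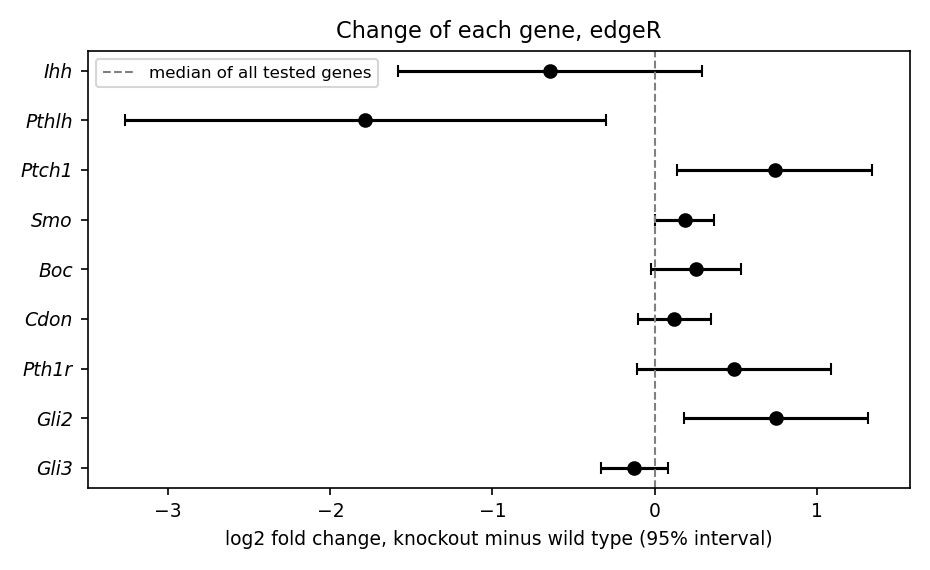
Log2 fold change, knockout minus wild type, of each of the 9 genes by edgeR, with 95% intervals as bars and the median of all tested genes as a dashed line. The intervals of Pthlh, Ptch1, Smo and Gli2 lie on 1 side of 0 before adjustment, and those of Smo, Boc, Cdon and Gli3 are the narrowest.

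Set against the whole table, 0 of 9 genes were called by edgeR at an adjusted p under 0.05, where 9.25% of 13773 tested genes were called, 3.62% rising and 5.63% falling. At an unadjusted p under 0.05 there were 4 of 9 (Pthlh, Ptch1, Smo and Gli2), where 29.2% of tested genes had one. Pthlh had entered the test only through the wild type group, so this count is a description. DESeq2 called 1 of the 8 members with an adjusted p, Ptch1, where it called 12.6% of genes, and in the authors' deposited table, where 8.52% had an adjusted p under 0.05, Ptch1 was likewise the single member. In 8 of 9 genes the knockout and wild type libraries did not overlap, 6 higher and 2 lower in knockout, where 61.7% of tested genes were separated, 30.9% higher and 30.7% lower. The median log2 fold change of the 9 was 0.18, with a range of -1.79 to 0.75, and that of all tested genes was 0.0044. When wild type replicate 1 was left out, edgeR called 0 genes in the whole table and 3442 had an unadjusted p under 0.05. When wild type replicate 2 was left out it also called 0, and 2587 had one. A call missing from those fits therefore tells nothing of a single gene.

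**Figure D4:**
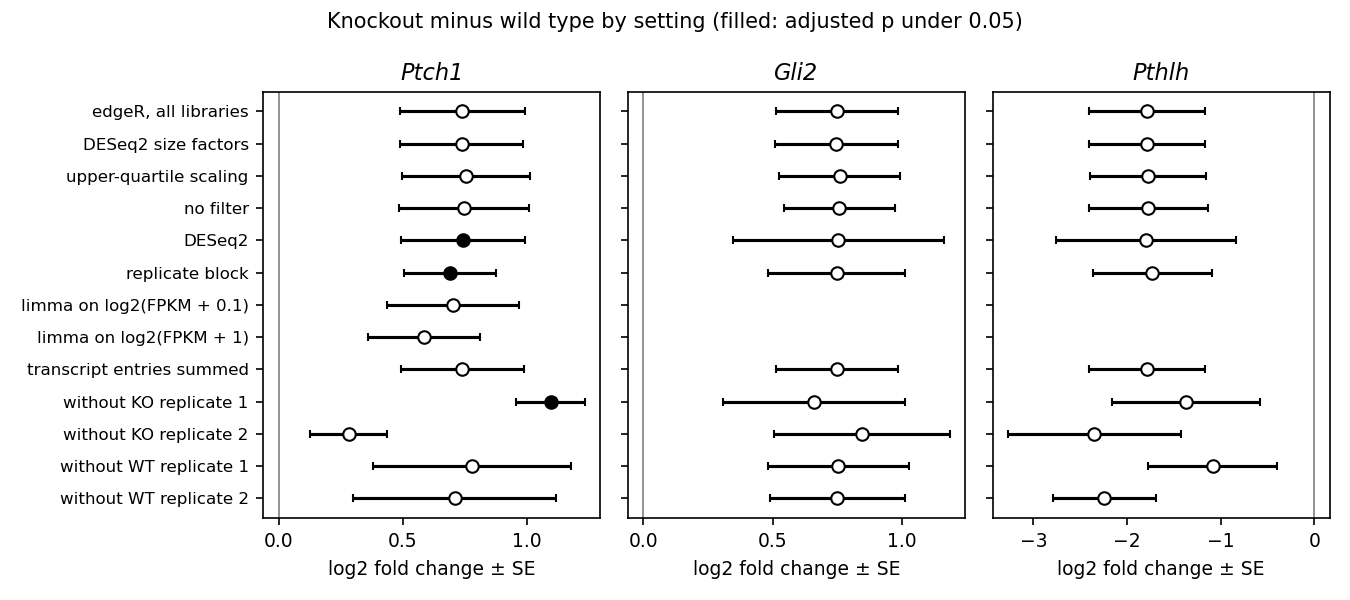
Log2 fold change ± SE, knockout minus wild type, of Ptch1, Gli2 and Pthlh under the reported fit and each other setting, with filled points at an adjusted p under 0.05. Ptch1 runs from 0.28 without knockout replicate 2 to 1.10 without knockout replicate 1, while Gli2 stays between 0.66 and 0.84. Gli2 and Pthlh have no value in the FPKM fits, where their mean was under 0.5 FPKM.

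The start-site sequences of the 3 genes with the smallest p-values are shown because the methyl mark that the 2 demethylases remove is found mainly at promoters rich in CpG dinucleotides. They are the 250 bases before an annotated start, from RefSeq on GRCm38.p6, where 8 of the 9 genes matched with 10 windows, 5′ to 3′ on the gene's strand, with CpG in capitals. Ptch1 lies at chr13:63565736-63565985, Gli2 at chr1:119053620-119053869 and Pthlh at chr6:147264014-147264263, each on the minus strand, and the Ptch1 and Gli2 windows lie inside the annotated span of their gene, upstream of an internal start. The expression files use mm9, and no coordinate of theirs is used.
Ptch1: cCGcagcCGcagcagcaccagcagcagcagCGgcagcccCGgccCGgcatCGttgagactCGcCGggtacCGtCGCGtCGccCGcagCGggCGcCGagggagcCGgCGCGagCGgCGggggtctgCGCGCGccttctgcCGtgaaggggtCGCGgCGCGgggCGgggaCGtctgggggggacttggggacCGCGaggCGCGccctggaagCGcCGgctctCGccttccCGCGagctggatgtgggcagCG
Gli2: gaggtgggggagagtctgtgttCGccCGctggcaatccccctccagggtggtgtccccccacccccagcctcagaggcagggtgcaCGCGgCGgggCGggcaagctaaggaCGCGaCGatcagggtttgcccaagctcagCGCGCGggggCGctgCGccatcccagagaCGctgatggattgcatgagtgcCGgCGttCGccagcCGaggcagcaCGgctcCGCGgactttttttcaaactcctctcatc
Pthlh: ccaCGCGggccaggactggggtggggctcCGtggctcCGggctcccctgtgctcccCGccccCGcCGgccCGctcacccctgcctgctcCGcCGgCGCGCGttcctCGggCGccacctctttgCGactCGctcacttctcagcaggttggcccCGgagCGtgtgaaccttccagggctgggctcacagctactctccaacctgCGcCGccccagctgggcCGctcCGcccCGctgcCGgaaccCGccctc

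The Ptch1 window held 41 CpG, an observed to expected ratio of 1.08 that was above 97.3% of 32841 such windows. The Gli2 window held 22 (ratio 0.78) and the Pthlh window 26 (ratio 0.77), against a median ratio of 0.374 over all windows. Of the other members with a window, Gli3 had the highest ratio, 1.13, and the windows of Ihh and Smo had 0.783 and 0.535. Pth1r has 3 annotated starts, with ratios of 0.18, 0.613 and 0.713. The window of Cdon, which starts inside the gene's annotated span, had 1 CpG and a ratio of 0.0883. Gli3 and Ptch1, with the highest ratios, had log2 fold changes of -0.13 and 0.74. The Gli consensus motif gaccaccca, searched on both strands with no mismatch allowed, was in none of the 10 member windows and in 0.225% of all windows. At so low a share its absence from 10 windows tells nothing of Gli sites in these genes.

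Textbook targets of hedgehog signalling gave a mixed picture. Gli1 and Hhip, the targets most used as its readout, were near the limit of detection in both groups. Gli1 had 3 and 8 counts in the knockout libraries, against 5 and 6 in the wild type libraries, and Hhip had 10 and 6 counts in knockout and 9 and 7 in wild type libraries. Both stayed below the filter and were not tested, and each group's counts summed to 11 for Gli1 and to 16 for Hhip. Of 11 targets 8 were tested, of which 0 rose, 2 fell and 6 did not pass, with a median log2 fold change of -0.48. This was 25% of the list, where 9.25% of all tested genes were called, 3.62% rising and 5.63% falling, with a median of 0.0044. Those that fell were the cyclin genes Ccnd2 and Ccnd1, which drive entry into S phase and respond to many other pathways. Ccnd2 measured 159 and 164 CPM in knockout and 285 and 323 CPM in wild type libraries (log2 fold change -0.92, SE 0.086, edgeR adjusted p = 0.0038). Ccnd1 measured 109 and 118 CPM in knockout and 172 and 156 CPM in wild type libraries (log2 fold change -0.53, SE 0.084, edgeR adjusted p = 0.0164). With wild type replicate 1 left out the log2 fold changes were -1.001 for Ccnd2 and -0.46 for Ccnd1, and with wild type replicate 2 left out they were -0.82 and -0.60.

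Among 28 tested genes that release, receive or pass on the hedgehog signal, 2 rose, 2 fell and 24 did not pass, a share of 14.3% called, against 9.25% of all tested genes, with a median log2 fold change of -0.039. Scube1 and Scube3 encode secreted proteins of a family that helps to release hedgehog ligands. Scube1 measured 122 and 112 CPM in knockout and 255 and 265 CPM in wild type libraries, and fell 2.22-fold (log2 fold change -1.15, SE 0.077, edgeR adjusted p = 0.00174). Scube3 measured 32.1 and 37.3 CPM in knockout and 53.6 and 55.5 CPM in wild type libraries, and fell 1.57-fold (edgeR adjusted p = 0.0128). Evc, a ciliary protein that binds Smoothened, measured 11.2 and 12.8 CPM in knockout and 6.83 and 5.73 CPM in wild type libraries, and rose 1.91-fold (log2 fold change 0.93, SE 0.15, edgeR adjusted p = 0.0175). Its partner Evc2 measured 40.7 and 42.0 CPM in knockout and 33.7 and 33.3 CPM in wild type libraries, with an edgeR adjusted p of 0.0541. Kif7, a ciliary kinesin that acts on the Gli factors, measured 13.5 and 12.9 CPM in knockout and 9.55 and 7.83 CPM in wild type libraries, and rose 1.51-fold (edgeR adjusted p = 0.0491). That call was lost without knockout replicate 1 (0.102) and without knockout replicate 2 (0.0569), without the filter on low counts (0.0780) and in limma on FPKM (0.0688 and 0.0639). With wild type replicate 1 left out the log2 fold changes were -1.18 for Scube1 and 1.07 for Evc, and with wild type replicate 2 left out they were -1.12 and 0.82. Desert hedgehog, Dhh, another ligand of the family, had 34 and 24 counts in knockout and 49 and 39 counts in wild type libraries (edgeR adjusted p = 0.223). No listed gene carried the symbol Shh, so it was not tested.

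**Figure D5:**
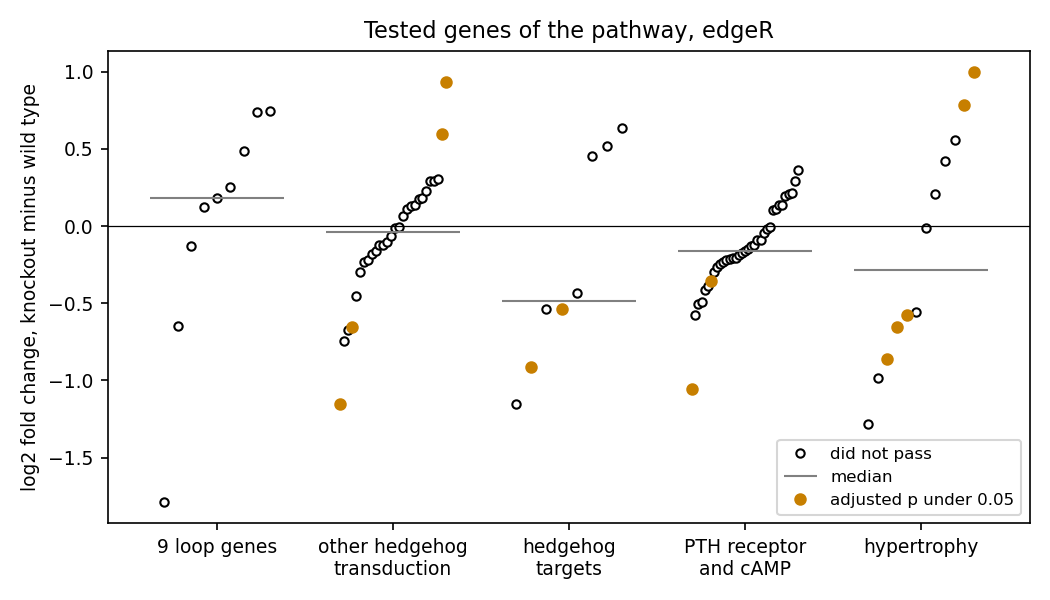
Log2 fold change, knockout minus wild type, of the tested genes in each list, sorted within the list, with filled points at an edgeR adjusted p under 0.05 and a grey line at the median. No point is filled among the 9 loop genes, against 4 among other hedgehog transduction genes, 2 among hedgehog targets, 2 in the PTH receptor and cyclic AMP list and 5 in the hypertrophy list.

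Below Pth1r, 35 genes of G proteins, cyclic AMP and its effectors were tested, of which 0 rose, 2 fell and 33 did not pass, a share of 5.71% called, below the 9.25% of all tested genes, with a median log2 fold change of -0.16. Slc9a3r1, which encodes a scaffold that binds the receptor, measured 4.12 and 3.93 CPM in knockout and 8.67 and 8.10 CPM in wild type libraries, and fell 2.08-fold (log2 fold change -1.06, SE 0.15, edgeR adjusted p = 0.012). Sik3, a kinase that the cyclic AMP pathway inhibits and that is needed for chondrocyte hypertrophy, measured 60.3 and 59.2 CPM in knockout and 77.3 and 75.7 CPM in wild type libraries, and fell 1.28-fold (log2 fold change -0.36, SE 0.068, edgeR adjusted p = 0.0275). The Sik3 call was lost without knockout replicate 1 (0.0734) and knockout replicate 2 (0.0945), without the filter on low counts (0.0516) and in limma on FPKM (0.0671 and 0.0665). Without knockout replicate 2 edgeR called 4 of the 35. Gnas, the stimulatory G protein gene, measured 1017 and 964 CPM in knockout and 929 and 871 CPM in wild type libraries and did not pass (edgeR adjusted p = 0.281). No listed gene carried the symbol Pth, so it was not tested.

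The genes listed for hypertrophy, the step that the loop controls, moved in both directions, and the list is not confined to genes that promote it. Of 12 tested, 2 rose, 3 fell and 7 did not pass, a share of 41.7% called, against 9.25% of all tested genes, with a median log2 fold change of -0.28. DESeq2 called 7, of which 3 rose and 4 fell, where it called 12.6% of all genes with an adjusted p. Runx2, a transcription factor that promotes hypertrophy, measured 19.9 and 23.1 CPM in knockout and 32.8 and 31.4 CPM in wild type libraries, and fell 1.49-fold (edgeR adjusted p = 0.0231). Mef2c, another factor that promotes it, measured 11.5 and 8.93 CPM in knockout and 5.28 and 4.94 CPM in wild type libraries, and rose (edgeR adjusted p = 0.0207). Zfp521, which parathyroid hormone related protein is known to induce, measured 28.6 and 27.9 CPM in knockout and 17.9 and 14.9 CPM in wild type libraries, and rose (edgeR adjusted p = 0.0129). As that peptide delays hypertrophy, the rise of Zfp521 is not to be read as that of a gene that promotes hypertrophy. The matrix gene Spp1 and the vessel growth factor gene Vegfa, both made by hypertrophic cells, fell. Spp1 measured 2187 and 2039 CPM in knockout and 3542 and 3097 CPM in wild type libraries (edgeR adjusted p = 0.0133). Vegfa measured 124 and 142 CPM in knockout and 223 and 261 CPM in wild type libraries (edgeR adjusted p = 0.00935). Col10a1, the collagen gene that defines hypertrophic cells, measured 8755 and 6769 CPM in knockout and 5331 and 6284 CPM in wild type libraries, and was higher in both knockout libraries. Its log2 fold change was 0.42 (SE 0.14), which did not pass in edgeR (adjusted p = 0.118) and passed in DESeq2 (adjusted p = 0.0299). Runx3, a factor related to Runx2, measured 5.07 and 9.94 CPM in knockout and 12.3 and 17.5 CPM in wild type libraries. With a log2 fold change of -0.98 (SE 0.32), Runx3 likewise did not pass in edgeR (adjusted p = 0.104) and passed in DESeq2 (adjusted p = 0.0194). The matrix protease gene Mmp13 measured 67.4 and 175 CPM in knockout and 230 and 361 CPM in wild type libraries (DESeq2 adjusted p = 0.260, edgeR adjusted p = 0.109) and did not pass. The Runx2 call was lost without knockout replicate 1 (edgeR adjusted p = 0.0558) and in limma on log2(FPKM + 0.1) (0.0510), and the Mef2c call in limma on log2(FPKM + 1) (0.0504). Without knockout replicate 2 edgeR called 8 of the 12.

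Beside these lists, the summed level of 5 osteoblast markers was 2.41 and 2.49 CPM in knockout and 6.55 and 6.85 CPM in wild type libraries. That of 5 endothelial markers was 77.4 and 64.2 CPM in knockout and 106 and 98.9 CPM in wild type libraries, and that of 8 macrophage markers was 29.7 and 31.5 CPM in knockout and 45.8 and 42.3 CPM in wild type libraries. The macrophage markers did not move together. Lyz2, Csf1r and Cd68 were lower in both knockout libraries, and Adgre1 and Mrc1 overlapped. C1qa, C1qb and C1qc, near the limit of detection, were higher in both knockout libraries. For 4 erythroid markers the sum was 8.88 and 9.73 CPM in knockout and 16.2 and 19.7 CPM in wild type libraries, although Alas2 overlapped. For 4 Schwann cell markers it was 7.96 and 8.47 CPM in knockout and 14.3 and 17.7 CPM in wild type libraries, although Sox10 was higher in both knockout libraries. The sums of 3 adipocyte markers overlapped. Osteoblasts and endothelial cells also express genes of these lists, and the part of other cell types in the values was not tested.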

How the data were processed

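RNA-seq tables of 4 libraries, 2 knockout and 2 wild type, were used, with groups taken from the sample titles. Triplicates are mentioned in the series text, whereas 2 libraries a group were analysed here. Bowtie2 2.2.5 and the build mm9 are named in the submitters' processing notes. Neither the counting tool nor the annotation release is given in the sources used here, and the use of strand is not stated, so reads of overlapping antisense genes could not be told apart. Per the file headers, the authors deposited an expected count and an FPKM value per gene and library. The authors' deposited comparison, made with DESeq2 per the file name, holds for each gene the mean signal of each group on a normalized count scale, the log2 ratio and the raw and adjusted p-value. A gene not listed in a library was taken as 0 there.

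Rounded expected counts went into edgeR 4.0.16, run in R 4.3.3 (TMM, filterByExpr, quasi-likelihood F test, all 4 libraries, no covariates), with Benjamini-Hochberg adjustment over 13773 genes and calls at an adjusted p under 0.05. SE is the size of the log2 change divided by the root of its F value, and 95% intervals use its t distribution. 26 entries named by a transcript, with 0.0271% of counts, stayed separate. The replicates were not one library deposited again, since chi-square averaged 22.1 per gene between the knockout and 20.2 between the wild type libraries. The alternatives used DESeq2 1.42.0, limma 3.58.1 on FPKM, other scalings and filters, a replicate block and leaving out each library. The fits were tested on simulated counts. The genes and lists were chosen with earlier results of these data known. Named were the 9 members, Kdm6a, Kdm6b, Gli1, Hhip, called list genes (up to 6 a list) and nearest genes. Dhh, Evc2, Gnas, Col10a1, Runx3, Mmp13 and single cell type markers were named after their values were seen.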

Additional observations from a re-analysis of the deposited data

How the results depend on the processing

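The direction of all 9 genes held under every setting listed here that gave a value. Ihh, Pthlh and Gli2 gave none in the FPKM fits with limma, where the mean was under 0.5 FPKM. 0 of 9 passed in edgeR, with 4 at an unadjusted p under 0.05, and 1, Ptch1, passed with DESeq2 and with the replicate block. The samples share only a replicate number, as the labels tie it to nothing else. The difference between the knockout replicates correlated with that between the wild type replicates at 0.164 over 9845 genes. With the block edgeR called 2316 genes, against 1274 without it, and 5 genes of the PTH receptor and cyclic AMP list. Without a filter 720 genes and 1 of that list passed, and in limma on log2(FPKM + 0.1) and log2(FPKM + 1) also 1 of that list. The share of falling genes among those called was lower in limma, with 530 rising and 482 falling at a pseudocount of 0.1, against 498 and 776 in edgeR. The cause was not tested.

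With 1 library left out at a time, edgeR called 0 to 1275 genes in all and 0 to 1 of the 9. It called 0 to 4 of the hedgehog transduction genes, 0 to 3 of the targets, 0 to 4 of the PTH receptor list and 0 to 8 of the hypertrophy genes, with 0 in each case when a wild type library was the one left out, where no gene of the table passed. The remaining lone library was assumed to vary like the others. DESeq2 with 1 library left out, an alternative chosen after seeing the data, also called 0 to 1 of the 9, with Ptch1 called without knockout replicate 1. Depth limits Ihh, Pthlh, Gli1 and Hhip, which had 3 to 29 counts in a library.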
